A study of Mus musculus with 8 samples.

Results

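Transcript levels in forebrain of EED-cKO mouse embryos at embryonic day (E) 15.5 were compared with those in wild-type (wt) forebrain of the same age. The comparison holds 4 of the 8 bulk RNA-seq libraries of the series, 2 of each genotype, chosen by their labels for age, tissue and genotype. The other 4 libraries are wt forebrain and wt spinal cord at E13.5. In the EED-cKO embryos the knockout of Eed depends on Sox1-Cre, a recombinase driven by a gene of early neural cells. Blood, vessels and microglia, which do not arise from those cells, are also in the dissected tissue. The labels give no strain, no allele names and no sex, and do not say whether a library is 1 embryo or a pool, and the p-values therefore reflect the spread of these libraries alone, which may be technical.

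EED belongs to the core of PRC2, the Polycomb complex that methylates histone H3 at genes meant to stay silent in a cell lineage. EED recognises the methylated histone and stimulates EZH2, the catalytic subunit. In the developing forebrain the complex is known for keeping genes of other body regions and other cell types off. The question here was which transcripts outside the Hox clusters differ when Eed is removed, read by what the genes do: metabolism, cell maintenance, secreted products, and proteins of the cell surface.

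The values were RPKM, reads per kilobase of gene scaled to a library's reads, rounded to 0.1. Read counts were not used here, so the depth behind each value is unknown. RPKM summed to 775646.5 and 843296.5 in wt and to 771823.4 and 761647.0 in EED-cKO. The E15.5 columns had to be matched to gene names in another row order than the deposited one, which raised the correlation of wt forebrain between the ages from 0.760 to 0.948 across genes. A change between genotypes is read within 1 row, so it does not depend on the order, but its gene name does. Eed was at 25.8 and 27.9 RPKM in wt and at 10 and 10.6 in EED-cKO (log2 −1.30 ± 0.091 SE, limma adjusted p = 0.00268). Ezh2 fell from 64 and 68.5 RPKM to 30.2 and 29.6 (log2 −1.12 ± 0.076), whereas Suz12, another core subunit, was at 30.3 and 28.5 against 22.9 and 25.4 and was not called (limma adjusted p = 0.076). Forebrain markers were present in all 4 libraries, with summed levels of 634.0 and 616.1 RPKM in wt and 272.4 and 238.2 in EED-cKO, and of the 10 markers 7 fell and 2 rose.

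Of 16310 genes at 1 RPKM or more in at least 2 of the 4 libraries, 3939 (24.2%) were called higher in EED-cKO and 1679 (10.3%) lower, at a limma adjusted p under 0.05. In this text "rose" and "fell" are used of called genes alone. The change reached 1 on the log2(RPKM + 1) scale for 1110 genes called higher (6.81%) and 189 called lower (1.16%). This scale understates the fold of genes with low values. For 72.3% of the tested genes the 2 groups had no overlap, so a lack of overlap alone says little about any one of them. Of the genes called higher, 644 were below 1 RPKM in both wt libraries and entered the test through EED-cKO alone. The smallest exact permutation p for 2 libraries against 2 is 0.333, and the calls rest on a spread shared across genes. With 1 library left out of the 4, limma called 0 genes without wt replicate 2, EED-cKO replicate 1 or EED-cKO replicate 2 (7469, 4200 and 3878 genes at an unadjusted p under 0.05), and 3724 higher and 2131 lower without wt replicate 1. In fits of all 8 libraries, which share the spread over 4 groups, 4307 of the 5618 calls (26.4% of genes tested) were made again whichever E15.5 library was left out. The genes named below as rising or falling are among these unless a value without a library is given. Counts of list members take all calls of the 4-library fit, also those not made again. Of the lysosomal calls (30 higher, 1 lower) 25 were made again, and of the synaptic vesicle calls (25 higher, 4 lower) 13 were. The median log2 change of all tested genes was 0.085, and −0.057 after quantile normalization, which split the calls 2861 higher and 3072 lower. List medians are to be read against 0.085, and list counts against the 24.2% called higher and 10.3% called lower.

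**Figure D1:**
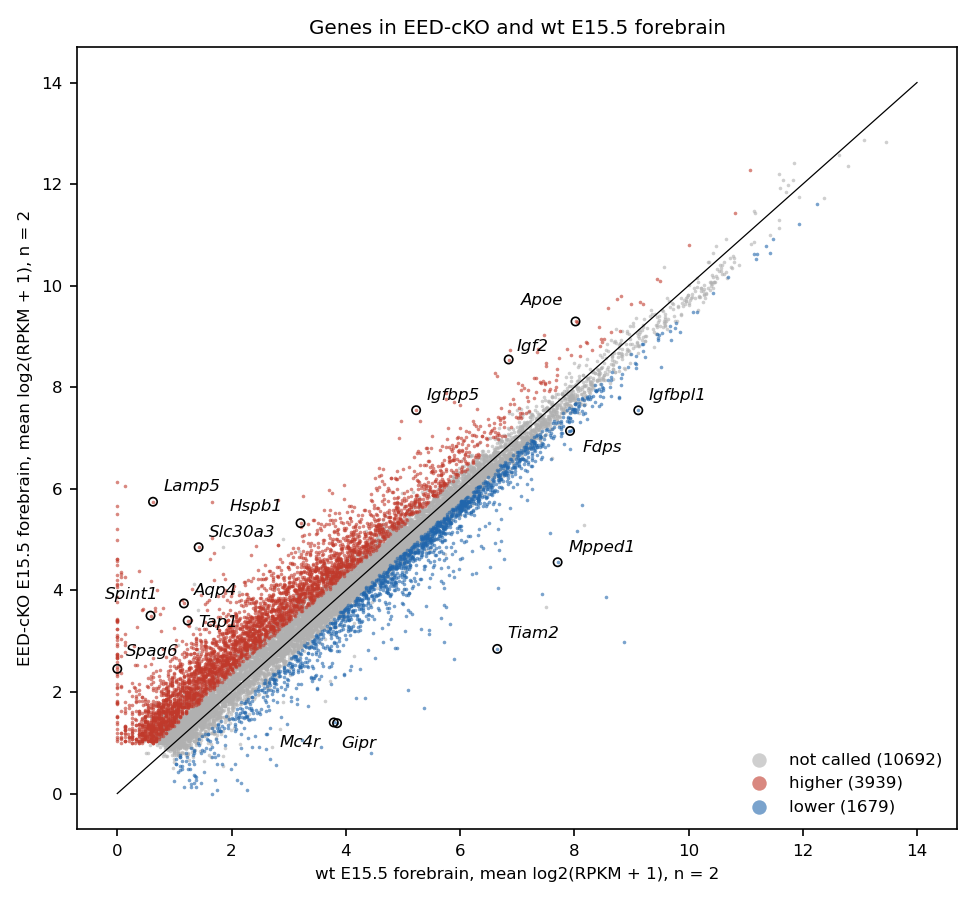
Mean log2(RPKM + 1) of each of 16310 tested genes in 2 wt libraries (horizontal axis) and 2 EED-cKO libraries (vertical axis), with genes called higher, called lower and not called in separate colours and 16 genes of the text labelled. Most points lie along the line of equal values, and genes low in wt such as Lamp5, Slc30a3 and Spint1 lie far above it.

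The libraries differed in ways other than genotype. In wt replicate 1, genes of diencephalon and midbrain were higher than in wt replicate 2, among them Tcf7l2 at 65.1 against 26.4 RPKM and Gata3 at 4.5 against 0.8 (chosen after their values were seen). In EED-cKO replicate 2, skeletal muscle markers summed to 185.6 RPKM against 7.5 to 11.3 in the other libraries, with Acta1 at 49.4 against 3 to 3.9, and pituitary markers summed to 217.5 against 7.3 to 25.7. Markers of meninges, vessels, microglia, choroid plexus, cartilage, bone and sensory ganglia were among those higher in EED-cKO. Meningeal fibroblast markers were called higher in 11 of 11 tested (12 in the list), with summed levels of 252.7 and 212.1 RPKM in wt and 657.1 and 773.5 in EED-cKO. The counts were 9 of 10 for endothelium (230.3 and 226.6 against 328.2 and 344.7), 6 of 8 for pericytes (161.6 and 145.2 against 230.6 and 234.9), 8 of 11 for microglia and macrophages (84.1 and 91.5 against 146.3 and 166.5) and 9 of 9 for choroid plexus (2151.7 and 2305.8 against 5880.9 and 4606.2). Cartilage markers were called higher in 6 of 6 tested (63.7 and 59.3 against 198.2 and 173.9), bone markers in 3 of 3 (8.7 and 6.8 against 21.7 and 25.8; 2 of them entered the test through EED-cKO alone, and 1 was called after quantile normalization) and sensory ganglion markers in 4 of 6 (39.2 and 32.9 against 65.0 and 58.8). Among the 6 sensory ganglion markers, 3 entered the test through EED-cKO alone, and 2 of the other 3 rose. Of the eye markers 2 of 3 rose, and of the olfactory epithelium markers 1 of 2, at summed levels under 10 RPKM in every library, while Schwann cell markers gave 1 higher and 1 lower of 3. In bulk tissue, more cells of a type and more RNA per cell cannot be told apart. The part of these cells in the results below was not tested. Of 8 liver markers 4 were at 0 in all 4 libraries, among them the defining marker Alb, and the 2 that could be tested, the apolipoprotein genes Apoa1 and Apoa2, rose (0 were called after quantile normalization, and Apoa2 was not called in the 8-library fit with any 1 E15.5 library left out), with sums of 3.5 and 3.7 against 5.9 and 7.1. Erythroid markers gave 3 higher and 1 lower of 10 (8278.3 and 11084.5 against 11539.8 and 12994.5). Xist, at 53.5 and 33 RPKM in wt and 52.2 and 73.6 in EED-cKO, was not called.

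**Figure D2:**
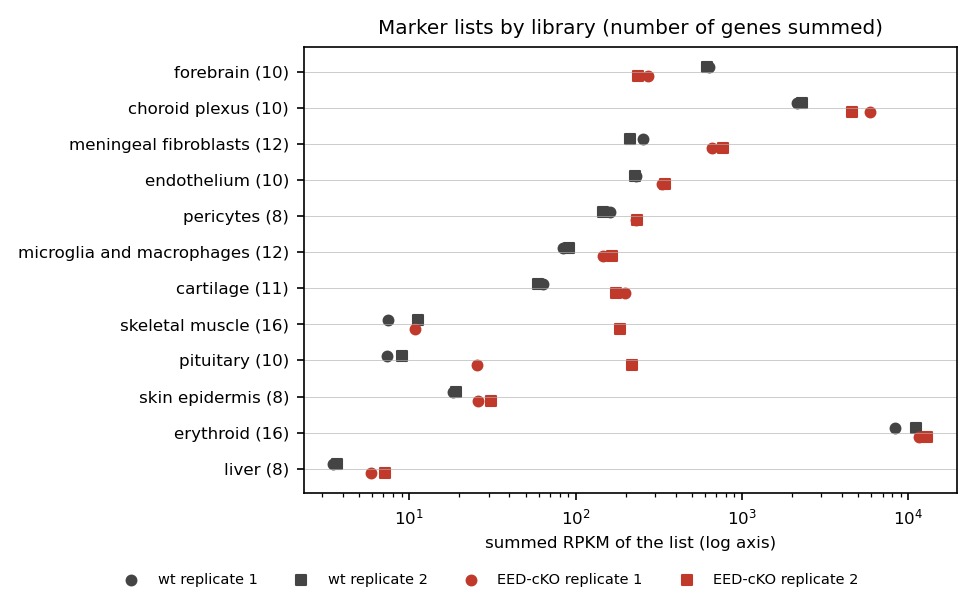
Summed RPKM of marker lists (log axis), 1 point per library, for 2 wt and 2 EED-cKO libraries. Forebrain markers are lower in both EED-cKO libraries, markers of meninges, vessels, microglia, choroid plexus, cartilage, epidermis, erythroid cells and liver are higher in both, and muscle and pituitary markers stand out in 1 EED-cKO library.

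Outside the homeobox and other developmental transcription factors and the cell cycle inhibitor genes that fill most of the 30 highest changes, the genes with the largest rises encode a vesicle membrane protein, a zinc carrier, a signalling modulator and a protease inhibitor. Lamp5, of the lysosome-associated membrane protein family, was at 0.7 and 0.4 RPKM in wt and at 53.4 and 51.9 in EED-cKO. Slc30a3, which loads zinc into synaptic vesicles, was at 2.6 and 1 against 27.5 and 28.2 (log2 3.43 ± 0.29). Cnpy1, a modulator of FGF signalling at the border of midbrain and hindbrain, was at 0.7 and 0.1 against 13.3 and 9.7 (log2 3.18 ± 0.26). Spint1, a membrane-anchored inhibitor of serine proteases in epithelia, was at 0.4 and 0.6 against 9.2 and 11.6 (log2 2.92 ± 0.15). In each of these genes the lower EED-cKO library was several times the higher wt library. The lowest change of all was that of Hbb-bt, an adult beta-globin gene of red blood cells, from 395.4 and 547.4 RPKM to 5.9 and 8.1 (log2 −5.88 ± 0.21). It went against the other 9 tested erythroid markers, whose log2 changes were all above 0, and its near-identical copy Hbb-bs was at 3159.1 and 4340.1 against 5109.1 and 5902.3 (log2 0.57 ± 0.23, not called), and short reads cannot always be assigned to 1 of the copies, so both values are uncertain. The 20 lowest also held genes of signalling within neurons. Tiam2, an activator of the GTPase RAC, fell from 102.5 and 96.6 RPKM to 6.2 and 6.2 (log2 −3.80 ± 0.078), and Mpped1, a phosphoesterase gene, from 199.3 and 217.5 to 22.7 and 22.3 (log2 −3.15 ± 0.079). Arl4d, a small GTPase gene, fell from 46.7 and 57 to 7 and 6.8 (log2 −2.74 ± 0.12), and Ppp1r1b, which encodes the dopamine-regulated phosphatase inhibitor DARPP of striatal neurons, from 39.3 and 46.8 to 8 and 7.7 (log2 −2.31 ± 0.11).

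Lipid metabolism split by pathway. Genes of cholesterol synthesis, the chain of enzymes from acetyl-CoA to sterol, moved down: of 24 tested, 14 fell, 0 rose and the median log2 change was −0.43 (−0.40 after quantile normalization). The largest decreases were in Fdps, which makes farnesyl diphosphate, from 222.2 and 264 RPKM in wt to 142.9 and 137.2 in EED-cKO (log2 −0.79 ± 0.11), and in Fdft1, squalene synthase, from 227.6 and 252 to 147.1 and 134.2 (log2 −0.77 ± 0.095). Insig1, a sterol-sensing regulator of the pathway, fell from 50.6 and 49.9 to 33.9 and 30.7 (log2 −0.62 ± 0.083). Lss, lanosterol synthase, was at 28.3 and 23.5 against 17.3 and 16.8, and Nsdhl, a later enzyme, at 42.3 and 45.6 against 29.7 and 30. In each of these 5 genes both EED-cKO libraries lay below both wt libraries, though 72.3% of all tested genes had no overlap between the groups. Hmgcs1, an early enzyme and the most abundant of the list, was at 333.5 and 293.9 against 256.9 and 235.8 and was not called (limma adjusted p = 0.0594). None of the 24 fell by as much as 1, so the shared direction is of moderate changes.

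Genes that burn fatty acids moved the other way. Of 20 tested genes of fatty acid oxidation, 11 rose and 0 fell, with a median of 0.35. Acadm, the medium-chain acyl-CoA dehydrogenase, rose from 25.6 and 26.5 RPKM to 45 and 45.3 (log2 0.77 ± 0.072), and Cpt1a, the enzyme that admits fatty acids to mitochondria, from 10.8 and 7.6 to 17.5 and 18.3 (log2 0.91 ± 0.17). Ppargc1a, a coactivator of mitochondrial genes, rose from 5.4 and 4 to 12 and 10.5 (log2 1.11 ± 0.16). The abundant members Etfb, Echs1 and Eci2 were not called. Of 18 genes of fatty acid synthesis and desaturation 5 rose and 0 fell, and the most abundant, Scd2, was at 337.7 and 260.6 RPKM against 286.4 and 293.2, so that the groups overlapped. Without wt replicate 2 in the 8-library fit 7 of that list fell.

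Carriers of lipid were higher as well. Of 21 tested lipid carrier and lipoprotein genes, 15 rose and 1 fell, with a median of 0.61, and 17 of the 21 were at 1 RPKM or more in a wt library. Apoe, the main lipoprotein of the brain, made by glia, was at 250.2 and 267.9 RPKM in wt and at 633.9 and 620.9 in EED-cKO (log2 1.27 ± 0.087, limma adjusted p = 0.00261). Abca1, which loads cholesterol onto it, rose from 7.9 and 5.2 to 13.3 and 15.8 (log2 1.06 ± 0.21). The member that fell was Fabp5, a fatty acid binding protein of neural progenitors, at 783.3 and 962.8 against 576.8 and 563.8 (log2 −0.61, and −0.46 with a limma adjusted p of 0.178 in the 8-library fit without wt replicate 2). It was also not called there without EED-cKO replicate 1 or replicate 2. Fabp7, its relative in radial glia, was not called. In the 8-library fit 16 of the list rose and 2 fell, and without EED-cKO replicate 2 the counts were 12 and 0.

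Central carbon metabolism showed few calls. Of 20 glycolytic genes, 1 rose and 0 fell: Eno2, the neuronal enolase, went from 59.9 and 59.3 RPKM to 89.2 and 89.6 (log2 0.58 ± 0.067). Gapdh was at 1412 and 1615.4 RPKM in wt and 1244.9 and 1249.7 in EED-cKO, not called. The glycolytic median was −0.04, and 0.09 after quantile normalization, where 7 rose and 2 fell, so no direction can be given for the list. Of 24 TCA cycle genes 4 rose and 0 fell, led by Suclg2, a subunit of succinyl-CoA ligase, from 16.6 and 15 to 24.2 and 25.8, but in the 8-library fit, with 5 higher and 1 lower, 6 of the list fell without wt replicate 1 and 2 rose without EED-cKO replicate 2. Subunits of respiratory complexes III to V had 0 calls among 35, with Atp5b at 882.6 and 1005.8 against 811.5 and 800.7. That count rested on the wt libraries: in the 8-library fit 0 rose and 1 fell, but 24 fell without wt replicate 1, and 8 rose without wt replicate 2. By contrast, 4 of 7 genes of the pentose phosphate pathway, which supplies NADPH and ribose, fell and 0 rose (median −0.47). Tkt, transketolase, fell from 228.7 and 254.6 RPKM to 169.7 and 163.3 (log2 −0.53 ± 0.089), and G6pdx, the entry enzyme, from 46 and 43.2 to 31.6 and 32 (log2 −0.47 ± 0.075).

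Enzymes that use amino acids were called in both directions. Of 31 tested genes of amino acid, urea cycle and polyamine metabolism, 8 rose (25.8%, near the 24.2% of all genes) and 6 fell (19.4%, against 10.3%), and without wt replicate 1 in the 4-library fit 5 rose and 6 fell. Glul, the glutamine synthetase of astrocytes and radial glia, was at 161.8 and 157.2 RPKM in wt and 293.2 and 288.1 in EED-cKO (log2 0.86 ± 0.074), and Ass1, of the urea cycle, rose from 5.6 and 6.1 to 14.7 and 18 (log2 1.34 ± 0.13). Ckmt1, the mitochondrial creatine kinase, rose from 31.3 and 31.3 to 57.1 and 61.6. Odc1, the rate-limiting enzyme of polyamine synthesis, fell from 194.7 and 240.8 to 126.7 and 133.4 (log2 −0.73 ± 0.12), and Srm, spermidine synthase, from 99 and 110.9 to 62.4 and 67.7 (log2 −0.68 ± 0.093). Pycr1 and Aldh18a1, which make proline, also fell (log2 −0.60 and −0.48). Of 30 nucleotide synthesis genes 7 fell, among them Dck, deoxycytidine kinase, from 32.2 and 34.8 to 22 and 20.4, and Dut, which breaks down dUTP, from 86.4 and 109 to 62.5 and 61.5. The 2 that rose were Prps2, which makes the ribose donor for nucleotides, from 10.4 and 7 to 23.4 and 20.1 (log2 1.25 ± 0.20), and Pnp, of purine salvage (log2 0.55 ± 0.077). With median ratio scaling 12 of the list fell, and in the 8-library fit 14 did.

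Some of the other metabolic lists had a share called higher above the 24.2% of all genes, and others did not. Of 21 tested cytochrome P450 genes, of 99 listed, 13 rose and 1 fell (6 and 2 after quantile normalization). Through EED-cKO alone 3 of the 21 passed the filter, and 10 of the other 18 rose. Cyp1b1, which acts on steroids and retinoids, had the largest change, from 4.1 and 2.8 RPKM to 14.4 and 13.6 (log2 1.77 ± 0.17). Of 24 aldehyde and aldo-keto dehydrogenases 11 rose and 4 fell. Aldh2, a mitochondrial enzyme that clears aldehydes, rose from 73.9 and 72.9 to 121.5 and 120.9 (log2 0.72 ± 0.067), and Aldh1a3, which makes retinoic acid, fell from 2.4 and 2.4 to 0.6 and 0.8. Of 17 prostaglandin and leukotriene genes 10 rose and 0 fell, the most abundant being Ptgds, the prostaglandin D synthase of meninges and choroid plexus, at 262.1 and 285.5 against 459.6 and 438.7 (log2 0.71 ± 0.090). Among these 17, 3 passed the filter through EED-cKO alone, and 8 of the other 14 rose. Of 23 iron, heme and metallothionein genes 9 rose and 0 fell, with Cp, the copper-binding ferroxidase ceruloplasmin, at 4.8 and 3.6 against 12.7 and 14.2 (log2 1.48 ± 0.15). Serine, glycine and one-carbon genes gave 2 higher and 4 lower of 22. Hypoxia response genes gave 3 higher and 3 lower of 15, with 4 higher and 2 lower in the 8-library fit, where 1 was lower without wt replicate 1. Of 20 ER chaperone genes 3 rose and 1 fell, and 9 rose in the 8-library fit. Without wt replicate 1 in the 4-library fit the direction of this list turned, with 1 higher and 2 lower.

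Enzymes that build and trim the sugar chains of the cell surface changed in both directions. Of 40 glycosaminoglycan genes 14 rose and 4 fell (8 and 6 after quantile normalization). Sulf2, which removes sulfate from heparan sulfate outside the cell, rose from 60 and 48.7 RPKM to 144.1 and 147.2 (log2 1.41 ± 0.12), and the sulfotransferase Hs3st1, which adds sulfate to heparan sulfate, fell from 24.5 and 25.8 to 12.1 and 12.4 (log2 −0.98 ± 0.083). Of 63 fucosyl, sialyl and GalNAc transferases and their relatives 21 rose and 6 fell (29 and 8 in the 8-library fit, and 32 and 9 in that fit without wt replicate 1).

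**Figure D3:**
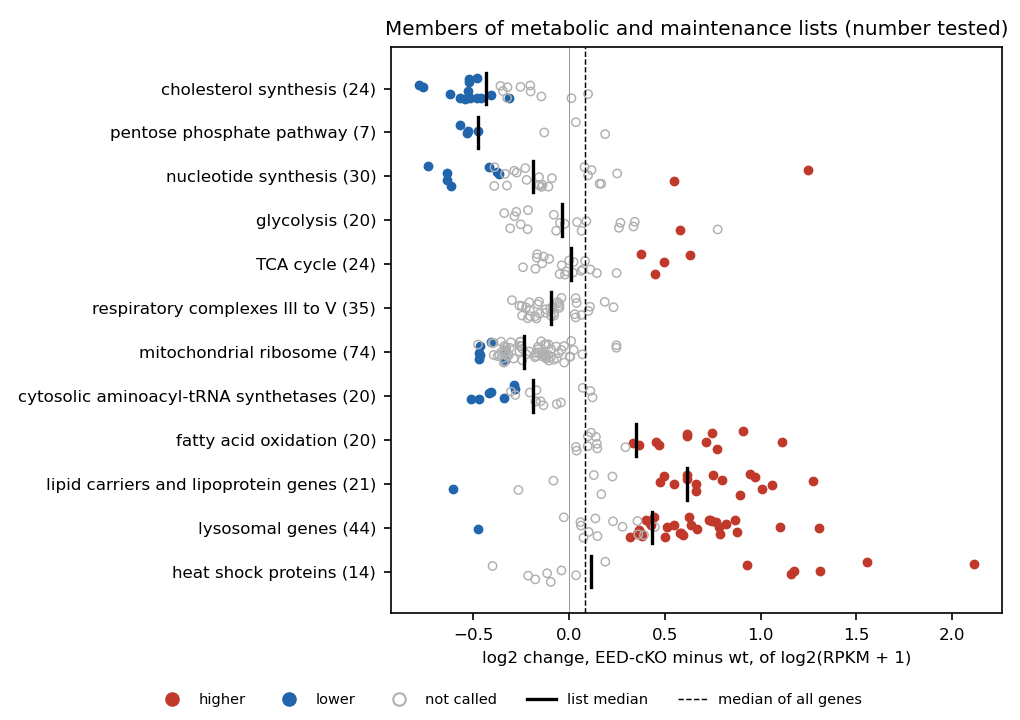
Log2 change (EED-cKO minus wt, log2(RPKM + 1)) of every tested member of 12 metabolic and cell maintenance lists, 1 point per gene, filled where called. The short line is the list median and the dashed line the median of all genes, 0.085. Cholesterol synthesis and pentose phosphate genes lie mostly below it, and lysosomal, fatty acid oxidation and lipid carrier genes mostly above it.

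Lysosomal genes, which encode the hydrolases and membrane proteins of the degrading compartment, were called higher more often than lower. Of 44 tested, 30 rose and 1 fell (median 0.43, and 0.41 after quantile normalization), and every one was at 1 RPKM or more in a wt library. Most changes were small: 2 rose by 1 or more. Ctsk, a cathepsin of matrix-degrading cells, rose from 6 and 6 RPKM to 16.1 and 16.5 (log2 1.31 ± 0.090), and Tpp1, a peptidase, from 14.4 and 11.8 to 27.6 and 30.8 (log2 1.10 ± 0.13). Ctsd, an abundant aspartic protease, rose from 158.2 and 161.9 to 233.9 and 246.8 (log2 0.58 ± 0.076). Tfeb, the transcription factor known for driving lysosomal genes, was at 1.8 and 1.8 in wt and 4 and 4.2 in EED-cKO (log2 0.86 ± 0.097). Npc2, a cholesterol carrier of the lysosome lumen, fell from 135.3 and 157.3 to 100.9 and 108.4 (log2 −0.48 ± 0.10). Markers of microglia and macrophages, cells rich in lysosomes, were higher in the same libraries (8 of 11 called).

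TFEB is known to bind an E-box-centred element near the starts of lysosomal genes, so the letters GTCACGTG were searched on both strands in the 250 bases before each RefSeq gene start (GRCm38.p6). They were 1 of 13 motifs searched in 6 lists, after the changes had been seen, and the matches are a description with no test. The list held them in 11 of the 36 members with a window (30.6%), against 2.11% of all 27025 genes with a window. Of the 11 members with the letters 7 rose and 0 fell (median log2 change 0.38). Of the 25 without them 18 rose and 1 fell (median 0.5). The part of TFEB in these changes was not tested. The sites below show the element in 6 of the 11 members with it, 30 bases each on the gene's strand, 5′ to 3′, with the match in capitals. Each lies upstream of the annotated start.
Ctsd: cgcccgcgtctCACGTGACccgttgagggc
Lgmn: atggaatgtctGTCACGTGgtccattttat
Naglu: ccaaccttcagGTCACGTGgcccgaggtcg
Sgsh: ggcctgccgtgCACGTGACcgtggggagcg
Lamp1: atgccgactggCACGTGACcacatcacgtg
Mcoln1: gggtcgcgcttGTCACGTGttcagttcagg
They are at chr7:142387907-142387936 (minus strand), chr12:102439125-102439154 (minus), chr11:101070008-101070037 (plus), chr11:119355521-119355550 (minus), chr8:13159122-13159151 (plus) and chr8:3500435-3500464 (plus). These genes were chosen after their values were seen. Lgmn, a cysteine endopeptidase, rose from 31.5 and 33.8 RPKM to 45.5 and 48.4 (log2 0.51 ± 0.081), and Naglu, which degrades heparan sulfate, from 6.2 and 6 to 10.5 and 11.1 (log2 0.73 ± 0.096). Sgsh, a sulfatase of the same route, rose from 2.1 and 2 to 3.7 and 4.5, but was not called after quantile normalization. Lamp1, the membrane protein that marks lysosomes, and the channel gene Mcoln1 carry the same letters and were not called: Lamp1 was at 169.3 and 179.2 against 185.3 and 188.8, and Mcoln1 at 32.2 and 34.4 against 35.4 and 34.2. The sterol response letters TCACNCCAC were found in 1 of 17 cholesterol genes (5.88%, and 1.22% of all genes), while GGGCGG and CCAAT were each found in 16 of 17, against 35.4% and 37.5% of all genes. Of the 78 pairs of motif and list, 32 had no match, and in 6 the share of members with a match was at least 3 times that of all genes, with 3 or more members. These 6 were the lysosomal list with GTCACGTG and with the overlapping letters TCACGTG (33.3% against 3.58%) and TCACGTGA (13.9% against 0.907%), the cholesterol list (14 of 24 tested fell) with GTCACGTG (3 of 17, 17.6% against 2.11%) and TCACGTG (the same 17.6%), and the heat shock list with GAANNTTC (5 of 9, 55.6% against 7.73%).

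Genes of protein protection were called in part. Of 14 heat shock genes 6 rose and 0 fell. Hspb1, a small chaperone, was at 7.9 and 8.6 RPKM in wt and at 35.5 and 43 in EED-cKO (log2 2.12 ± 0.12, limma adjusted p = 0.00206). Bag3, a cochaperone, rose from 3 and 2.5 to 8.2 and 8.4 (log2 1.31 ± 0.12), and Hspb8 from 6 and 7.2 to 16.6 and 15.3 (log2 1.16 ± 0.12). Hspa1a and Hspa1b, near-identical copies whose values 50-base reads may split, rose by 1.18 and 1.56. The abundant Hspa8, at 1638.8 and 1743 against 1511.4 and 1478.9, and Hsp90ab1 were not called. Of 39 glutathione and antioxidant genes, 14 rose and 2 fell, with a median of 0.18, but 6 rose and 7 fell in the 4-library fit without wt replicate 1. Gsta4, which detoxifies lipid aldehydes, rose from 13.6 and 18.4 to 43 and 41 (log2 1.35 ± 0.15), and Slc7a11, the cystine carrier, from 3.2 and 2 to 7.2 and 8.6 (log2 1.32 ± 0.20). Txnrd1, thioredoxin reductase, fell from 90.8 and 84.3 to 63.8 and 62.5. In the 27 genes of the integrated stress response, 6 rose and 4 fell. Sesn2, a stress-induced inhibitor of growth signalling, rose from 3.9 and 3.5 to 16.8 and 17.3 (log2 1.94 ± 0.10), whereas Atf4, the central factor of that response, was at 141.2 and 158.8 against 117.2 and 120.9 (log2 −0.33 ± 0.089). That call was lost in the 8-library fit without EED-cKO replicate 1 (log2 −0.31, limma adjusted p = 0.0552) and after quantile normalization.

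Genes that make RNA and protein were called lower more often than higher, and by small amounts. Of 66 splicing factors 25 fell and 3 rose (median −0.28), of 65 translation factors 17 fell and 2 rose (median −0.24), and of 20 cytosolic aminoacyl-tRNA synthetases 7 fell and 0 rose (median −0.19). Hnrnpab, an abundant RNA-binding protein, fell from 780.4 and 876.7 RPKM to 498.9 and 469 (log2 −0.77 ± 0.11), and Eif4a1, a helicase of translation initiation, from 835.2 and 1008.5 to 544.3 and 541.3 (log2 −0.76 ± 0.13). Gars, glycyl-tRNA synthetase, fell from 132.5 and 141.2 to 97 and 93.9 (log2 −0.51 ± 0.075). Of 34 ribosome biogenesis genes 11 fell, among them Fbl, fibrillarin, from 135.5 and 154.9 to 98.2 and 97.9. Of 74 mitochondrial ribosome genes 7 fell and 0 rose, a share lower of 9.46%, near the 10.3% of all tested genes. The 37 proteasome subunits gave 7 lower (18.9%) and 2 higher, the 2 being the immunoproteasome genes Psmb8 and Psmb9. These counts moved with the fit and with the libraries in it. In the 8-library fit the numbers lower were 30 for translation, 30 for the mitochondrial ribosome and 25 for the proteasome. They were 40, 53 and 31 in that fit without wt replicate 1, and 15, 6 and 4 without EED-cKO replicate 2. In the same fit 36 splicing genes were lower (18 without EED-cKO replicate 2), 10 synthetase genes (14 without wt replicate 1) and 18 ribosome biogenesis genes (6 without EED-cKO replicate 2). The 3 splicing genes that rose were Nova1, from 76.6 and 51.2 to 203.2 and 194.9 (log2 1.65 ± 0.20), Srsf12, from 17.9 and 15.2 to 28.9 and 28.8 (log2 0.77 ± 0.105), and Rbfox3, from 45.8 and 40.7 to 65 and 65.9 (log2 0.59 ± 0.087).

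Of the 78 lists by function, 63 had more members called higher than lower and 12 more called lower, as the plot of shares by list shows. All tested genes lean the same way, with 24.2% called higher and 10.3% lower, so that lean alone says little about a list. Shares higher near 24.2% were seen, for example, in apoptosis (28.6%), fatty acid synthesis (27.8%), integrated stress response (22.2%) and neuronal adhesion genes (29.9%).

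**Figure D4:**
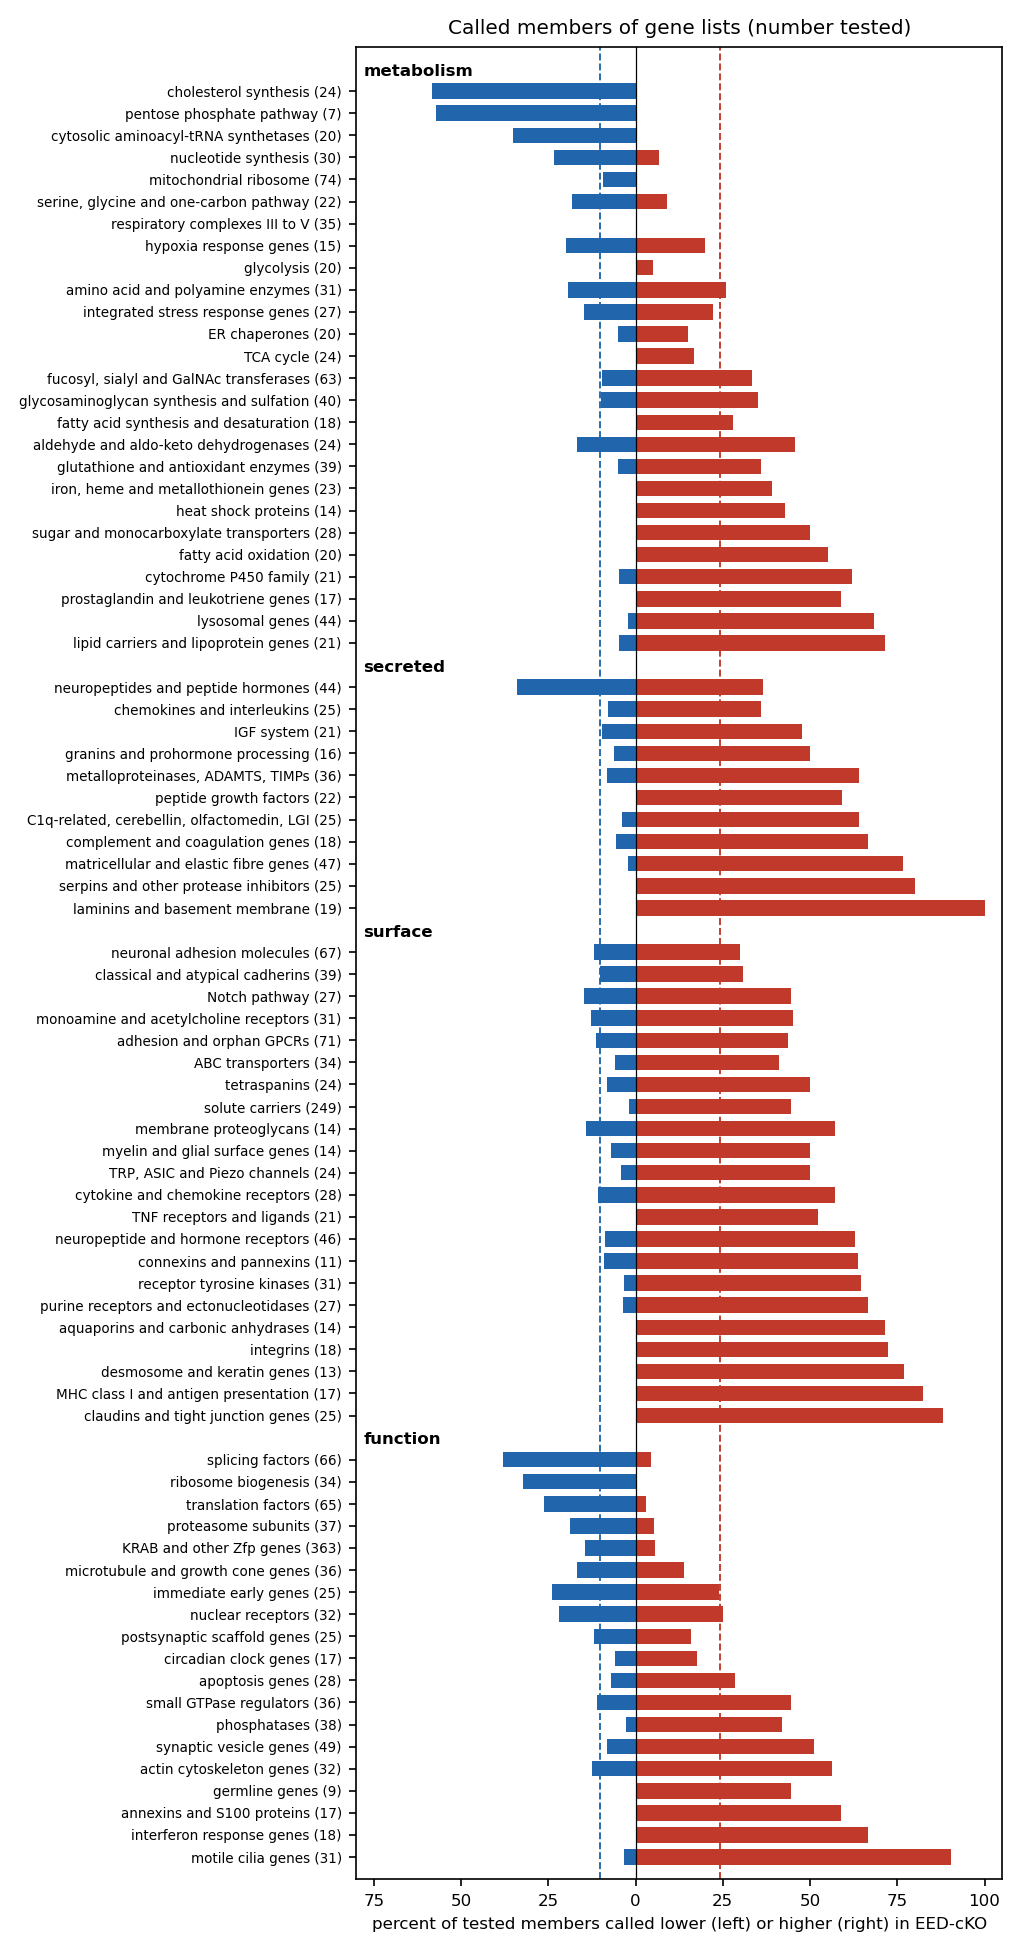
Percent of tested members called higher (to the right) and lower (to the left) in all 78 gene lists by function, grouped by theme and ordered by the difference of the 2 shares, with the number tested in brackets. Dashed lines mark the same shares over all 16310 genes, 24.2% and 10.3%. The laminin and basement membrane list reaches farthest to the right, with 19 of 19, and the cholesterol synthesis list farthest to the left, with 14 of 24.

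Secreted matrix genes rose as a group, with few exceptions. All 19 tested genes of laminins and basement membrane, the sheet beneath vessels, pia and epithelia, rose, with a median of 1.27, and each was at 1 RPKM or more in a wt library. Of these calls, 17 were made again in the 8-library fits with any E15.5 library left out. Col4a5, a chain of basement membrane collagen, was at 7.6 and 5.4 RPKM in wt and at 21.4 and 23.7 in EED-cKO (log2 1.66 ± 0.17). Nid1, nidogen, which links laminin to collagen, was at 19.2 and 12.1 against 42.7 and 48.6 (log2 1.52 ± 0.22). Of 47 matricellular and elastic fibre genes 36 rose and 1 fell (median 0.90). Fn1, fibronectin, rose from 16.4 and 15 to 49.1 and 50.1, Eln, elastin, from 23.3 and 20.3 to 66.4 and 80.4 (log2 1.70 ± 0.13), and Sparcl1, a matrix protein of astrocytes and vessels, from 137.6 and 118.4 to 259.2 and 278.9 (log2 1.07 ± 0.10). Thbs3, a thrombospondin, was the member that fell (log2 −0.37 ± 0.084). Markers of meningeal fibroblasts (11 of 11), endothelium (9 of 10), cartilage (6 of 6) and bone (3 of 3), tissues rich in matrix, rose in the same libraries, and their part in these counts was not tested.

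Proteases of the matrix and their inhibitors rose together, with exceptions among the proteases. Of 36 matrix metalloproteinases, ADAMTS proteases and TIMP inhibitors, 23 rose and 3 fell. Mmp2, a gelatinase, rose from 11.4 and 9.5 RPKM to 26.5 and 29.6 (log2 1.35 ± 0.12), and the inhibitor Timp4 from 5.6 and 5.7 to 16.8 and 19.5 (log2 1.52 ± 0.11). The genes that fell were Adamts3, which processes collagen and VEGFC precursors, from 9.6 and 8.7 to 2.3 and 2.3 (log2 −1.62 ± 0.10), Adamts18 from 11.3 and 9.4 to 2.9 and 3.5 (log2 −1.43 ± 0.14) and Mmp17 from 28.6 and 29.9 to 16.2 and 14.4 (log2 −0.89 ± 0.094). Of 25 serpins and other protease inhibitors tested 20 rose and 0 fell (median 0.87), Spint1 with the largest change. Only 25 of the 83 inhibitor genes in the table passed the filter, 4 of them through EED-cKO alone. Serpinh1, the collagen chaperone, rose from 136.3 and 139.9 to 248.4 and 258.9 (log2 0.87 ± 0.074), and Itih5, an inhibitor that binds hyaluronan, from 5 and 3.3 to 15.8 and 18.9 (log2 1.85 ± 0.20).

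The insulin-like growth factor system showed rises and falls of its binding proteins. Of 21 tested genes 10 rose and 2 fell. Igf2, the fetal growth factor, was at 140.3 and 93.4 RPKM in wt and at 351.5 and 395.5 in EED-cKO (log2 1.69 ± 0.21), and Igf2r, which clears it, rose from 9.8 and 7.6 to 18 and 18.5. Igfbp5, a binding protein, rose from 45.6 and 29.3 to 167.7 and 206.8 (log2 2.32 ± 0.23), the largest change of the list. Igfbpl1, a related secreted protein of newborn neurons, fell from 497.9 and 620.1 to 203.5 and 169.7 (log2 −1.58 ± 0.15), and Igfbp3 from 29.6 and 31.4 to 13.6 and 16. Of 22 growth factor genes of the VEGF, PDGF, EGF, HGF and angiopoietin families 13 rose and 0 fell. Gas6, the ligand of the TAM receptor kinases, rose from 31.2 and 30.7 to 82.9 and 83.9 (log2 1.40 ± 0.068), and Ptn, pleiotrophin, from 700.7 and 697.3 to 1110.6 and 1120.6 (log2 0.67 ± 0.097). Mdk, its relative, was at 279.7 and 386 against 333.8 and 291.2 and overlapped. Among 25 tested chemokines and interleukins 9 rose and 2 fell, but 4 of the 25 passed the filter through EED-cKO alone, and 6 of the other 21 rose. Cx3cl1, a neuronal chemokine, rose from 23.8 and 18.7 to 51.6 and 54.6 (log2 1.29 ± 0.13), and its microglial receptor Cx3cr1 from 5.2 and 3.9 to 9.8 and 12.3 (log2 1.12 ± 0.17). Cxcl12, a ligand that guides migrating neurons, rose from 45.1 and 41.4 to 83.8 and 85.9 (log2 0.96 ± 0.079), while both of its receptors fell, Cxcr4 from 38.9 and 46.4 to 28.6 and 26.4 (log2 −0.61 ± 0.11) and Ackr3 from 24.1 and 23.5 to 16.7 and 16.5 (log2 −0.49 ± 0.078).

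Further secreted groups were higher as well. Of 16 granins and prohormone processing genes 8 rose and 1 fell, but in the 8-library fit, where 7 rose, 4 did without EED-cKO replicate 2. Cpe, carboxypeptidase E, which trims peptide precursors, rose from 519.7 and 497.9 RPKM to 795.3 and 802.7 (log2 0.65 ± 0.092), and Pam, which amidates peptides, fell from 47.6 and 49.5 to 33.6 and 35.6 (log2 −0.48 ± 0.076). Of 18 complement and coagulation genes 12 rose and 1 fell. Through EED-cKO alone 3 of the 18 passed the filter, and 10 of the other 15 rose. The member that fell was Masp1, a protease of the lectin pathway, from 54.6 and 57.8 to 26.8 and 29.5 (log2 −0.97 ± 0.086). Of 25 C1q-related, cerebellin, olfactomedin and LGI genes 16 rose and 1 fell, with Olfm1, an abundant neuronal olfactomedin, at 304.5 and 283.3 against 473.4 and 474.2 (log2 0.69 ± 0.086).

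Neuropeptides and peptide hormones, unlike most secreted groups, changed in both directions: of 44 tested, 16 rose and 15 fell, with 8 higher and 6 lower by 1 or more. Of the 44, 6 passed the filter through EED-cKO alone, and 10 of the other 38 rose. After quantile normalization 12 of the list rose and 17 fell. Among those that fell, Npy, a peptide of interneurons, was at 97.9 and 111.9 RPKM in wt and 40.6 and 41.8 in EED-cKO (log2 −1.32 ± 0.092), and Nts, neurotensin, at 29.6 and 34.3 against 8.9 and 7.5 (log2 −1.84 ± 0.13). Sst, somatostatin, fell from 226.4 and 271.8 to 146.4 and 138.3 (log2 −0.80 ± 0.11), and Tac2, a tachykinin gene, from 4.3 and 6.7 to 1 and 0.3. Gcg, the glucagon precursor gene, went from 2.2 and 2.5 to 0 and 0.1. Among those that rose, Pnoc, the nociceptin precursor, was at 20.6 and 23.8 against 67.8 and 60.5 (log2 1.49 ± 0.11), Cartpt at 4.7 and 3.7 against 15.5 and 20.8 (log2 1.87 ± 0.18) and Pthlh, a hormone-like peptide of many tissues, at 1.4 and 1.5 against 7 and 6.7 (log2 1.68 ± 0.099). Npw was at 0.1 and 0 in wt and 2.1 and 2.1 in EED-cKO. Pomc, at 5.6 and 7.4 against 9 and 103.6, was high in 1 EED-cKO library and was not called.

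Receptors for peptides and hormones were called higher more often than lower, 29 of 46 against 4 (19 and 6 after quantile normalization). Through EED-cKO alone 7 of the 46 passed the filter, and 23 of the other 39 rose. The 2 largest changes were decreases. Gipr, the receptor for the incretin GIP, fell from 13.1 and 13.7 RPKM to 2.1 and 1.2 (log2 −2.46 ± 0.19), and Mc4r, the melanocortin receptor, from 13.7 and 12 to 1.9 and 1.4 (log2 −2.39 ± 0.14). Sstr2, a receptor for somatostatin, fell from 26.8 and 29.4 to 6.6 and 6, and Ntsr1, for neurotensin, from 10.5 and 9.1 to 3.5 and 4.2 (log2 −1.16 ± 0.13), so in both pairs the peptide and this receptor fell. Calcr, the calcitonin receptor, rose from 3.5 and 2.8 to 17.8 and 14.3 (log2 2.04 ± 0.16), with Ramp1 and Calcrl, which together form the CGRP receptor, from 9 and 12.8 to 35.2 and 37.9 (log2 1.68 ± 0.17) and from 3.3 and 2.1 to 6.8 and 6.8 (log2 1.10 ± 0.18). Receptors for monoamines and acetylcholine divided too, with 14 of 31 higher and 4 lower (8 and 9 after quantile normalization). Here 7 of the 31 passed the filter through EED-cKO alone, and 9 of the other 24 rose. Chrm1, a muscarinic receptor of cortex, fell from 6.9 and 6.8 to 1.5 and 1.7, Drd1, a dopamine receptor of striatum, from 4 and 4.2 to 0.7 and 1.1 (log2 −1.43 ± 0.14) and Htr3a, a serotonin-gated channel of interneurons, from 6 and 6.6 to 1.9 and 1.8 (log2 −1.36 ± 0.10). The nicotinic subunit genes Chrna3 and Chrna4 rose (log2 1.49 ± 0.11 and 1.37 ± 0.21). Adora2a, an adenosine receptor of striatum, was the member that fell among 27 purine receptor and ectonucleotidase genes (log2 −1.04 ± 0.12), of which 18 rose.

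**Figure D5:**
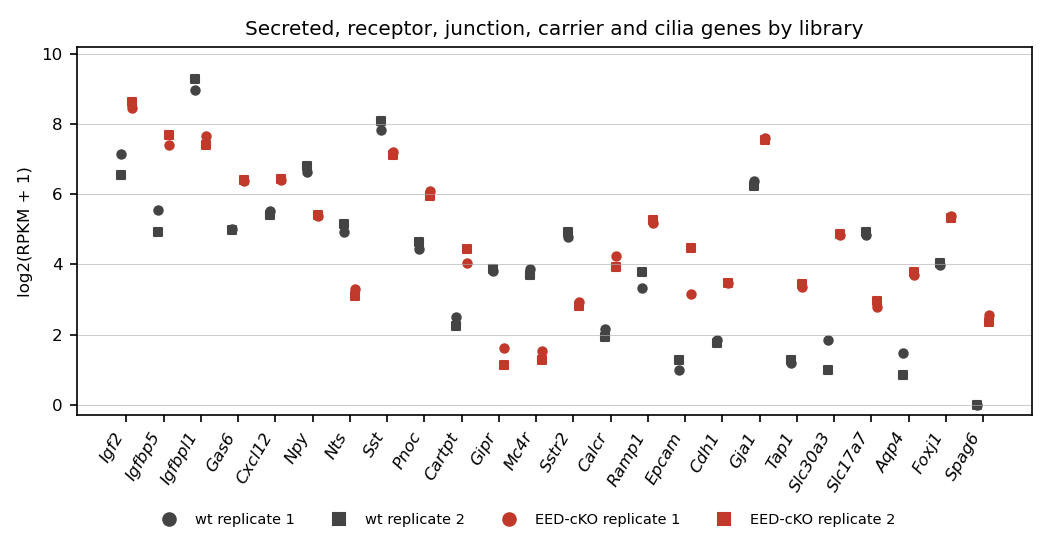
Log2(RPKM + 1) of 24 secreted, receptor, junction, carrier and cilia genes in each of 2 wt and 2 EED-cKO libraries, 1 point per library. In Igf2, Igfbp5 and Calcr both EED-cKO libraries lie above both wt libraries, in Igfbpl1, Npy, Gipr and Mc4r both lie below, and the 2 EED-cKO points of Epcam lie far apart.

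Transcripts of junction proteins, those of epithelia among them, were called higher more often than lower. Of 25 tested claudin and tight junction genes 22 rose and 0 fell (median 0.98, and 17 of the 20 detected in wt). Cdh1, the epithelial cadherin, was at 2.6 and 2.4 RPKM in wt and 10.1 and 10.1 in EED-cKO (log2 1.67 ± 0.10), while Cdh2, the neural cadherin, fell from 173 and 150.9 to 115.3 and 110.6 (log2 −0.51 ± 0.095). Cldn7 was at 0.2 and 0 against 4.8 and 7.3. Epcam, an epithelial adhesion protein, was at 1 and 1.4 against 7.9 and 21.3 (log2 2.68 ± 0.45), so its size rests in part on EED-cKO replicate 2, though both libraries were above wt. Of 13 tested desmosome and keratin genes 10 rose and 0 fell, 4 of the 13 having passed the filter through EED-cKO alone. Krt8 and Krt18, the keratins of simple epithelia, rose from 2 and 2.5 to 8.7 and 10 (log2 1.67 ± 0.13) and from 4.1 and 3.8 to 12.5 and 12.3 (log2 1.44 ± 0.098). Markers of other epithelia were higher in the same libraries: 9 of 9 tested for choroid plexus rose, and 1 of 3 for skin epidermis, with epidermal sums of 26.0 and 31.1 RPKM in EED-cKO, both above the 2 wt libraries, the lower of which was at 18.4. Markers of endothelium (9 of 10) and meningeal fibroblasts (11 of 11) rose too, and the part of these cells in the junction counts was not tested. Among 11 connexins and pannexins 7 rose and 1 fell. Gja1, the main connexin of radial glia and astrocytes, rose from 81.6 and 73.8 to 194 and 185.3 (log2 1.28 ± 0.085), with its meningeal and glial relatives Gjb2 (log2 1.53 ± 0.17) and Gjb6 (1.44 ± 0.10). Of 14 membrane proteoglycans 8 rose, among them Gpc3, a glypican, from 37.2 and 34.1 to 96.5 and 98.2 (log2 1.43 ± 0.078), and Sdc4, a syndecan, from 2.8 and 3.1 to 11.1 and 14.6. The 2 that fell were Gpc1 and Gpc2, glypicans of neurons and progenitors (log2 −0.27 ± 0.070 and −0.36 ± 0.087), with Gpc2 no longer called in the 8-library fit without EED-cKO replicate 2 (log2 −0.30, limma adjusted p = 0.0744). After quantile normalization 0 members of the list fell.

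Genes of MHC class I presentation, the display of peptides to T cells, rose in 14 of 17 tested members and fell in 0 (median 0.93, 12 of the 14 detected in wt). Tap1, a subunit of the peptide transporter of the endoplasmic reticulum, was at 1.3 and 1.4 RPKM in wt and at 9.3 and 9.9 in EED-cKO (log2 2.17 ± 0.10, limma adjusted p = 0.00136), and its partner Tap2 at 1.1 and 1.1 against 4.4 and 4.8 (log2 1.41 ± 0.10). Psmb9, an immunoproteasome subunit, rose from 0.5 and 0.7 to 2.6 and 2.9 (log2 1.23 ± 0.11). Tap1 and Psmb9 start back to back, and the 225 bases between their RefSeq starts, chr17:34187331-34187555 (GRCm38.p6, plus strand, with Psmb9 read to the left and Tap1 to the right), are shown as the stretch that lies upstream of both. Capitals mark 1 CCAAT and 1 match to GGGCGG on the minus strand. GAANNTTC, another of the motifs searched, also matched in this stretch and is not marked.
Psmb9 to Tap1: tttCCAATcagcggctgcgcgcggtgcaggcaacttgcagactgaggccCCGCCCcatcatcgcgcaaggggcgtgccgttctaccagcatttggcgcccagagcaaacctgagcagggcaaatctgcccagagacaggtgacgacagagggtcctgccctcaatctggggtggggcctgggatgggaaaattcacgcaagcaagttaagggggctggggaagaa
CCAAT was found before 12 of 15 MHC class I genes with a window and GGGCGG before 3 of 15, against 37.5% and 35.4% of all genes. Further members rose at higher levels, H2-D1 from 28.9 and 29.4 to 56.1 and 57 (log2 0.93 ± 0.070) and B2m, the light chain, from 52.6 and 57.8 to 87.1 and 99.8 (log2 0.75 ± 0.10). Copies of the H2 genes are alike, so reads may be split between them. Of 18 tested interferon response genes 12 rose and 0 fell, but 5 rose after quantile normalization, and in the 8-library fit, where 13 rose, 5 did without EED-cKO replicate 2. Among the 18, 4 passed the filter through EED-cKO alone, and 9 of the other 14 rose.

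Signalling receptors and channels at the surface were called higher more often than lower. Of 31 receptor tyrosine kinases 20 rose and 1 fell. Through EED-cKO alone 2 of the 31 passed the filter, Ltk among them, and 18 of the other 29 rose. Ltk, a kinase receptor of neural crest and neurons, was at 0.5 and 0.6 RPKM in wt and 4.2 and 4.1 in EED-cKO (log2 1.73 ± 0.097), and the member that fell was Ryk, a receptor for WNT ligands, from 46.5 and 53.6 to 38.1 and 37.3 (log2 −0.40 ± 0.095). Of 21 tested TNF receptors and ligands, of 45 listed, 11 rose and 0 fell, with Eda2r, an ectodysplasin receptor, at 0.4 and 0.6 against 5.1 and 4.7 (log2 1.98 ± 0.12) and Ngfr, the neurotrophin receptor p75, at 6.4 and 7.5 against 21.2 and 20.6 (log2 1.47 ± 0.11). Through EED-cKO alone 2 of the 21 passed the filter, Eda2r among them, and 9 of the other 19 rose. Of 28 cytokine and chemokine receptors 16 rose and 3 fell. Among these 28, 3 passed the filter through EED-cKO alone, and 13 of the other 25 rose. Of 71 adhesion and orphan G protein-coupled receptors 31 rose and 8 fell (21 and 12 after quantile normalization). Among these 71, 6 passed the filter through EED-cKO alone, and 25 of the other 65 rose. Gpr17, a receptor of oligodendrocyte precursors, went from 3.8 and 3.2 to 0.2 and 0.1. In the Notch pathway 12 of 27 genes rose and 4 fell. Dlk1, a noncanonical ligand, was at 29.2 and 30.5 against 58.8 and 94.4 (log2 1.29 ± 0.23), with the 2 EED-cKO libraries far apart, and Mfng, which modifies Notch receptors, fell from 23.3 and 27.6 to 12.1 and 11 (log2 −1.07 ± 0.12). Of 24 TRP, ASIC and Piezo channel genes 12 rose and 1 fell, but 6 of the 24 passed the filter through EED-cKO alone, and 7 of the other 18 rose. Of 34 ABC transporters 14 rose and 2 fell (8 and 5 after quantile normalization), and of 14 myelin and glial surface genes 7 rose and 1 fell.

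Among adhesion proteins, 13 of 18 integrin genes rose and 0 fell, with Itga3, a laminin receptor subunit, at 10.1 and 6.7 RPKM against 20 and 21.9 (log2 1.25 ± 0.20). Through EED-cKO alone 3 of the 18 passed the filter, and 11 of the other 15 rose. Of 24 tetraspanins 12 rose and 2 fell, the first including Cd63, of late endosomes, at 95 and 113.5 against 181 and 205.6 (log2 0.89 ± 0.12). Of 39 classical and atypical cadherins 12 rose and 4 fell (11 and 10 after quantile normalization, 17 and 7 in the 8-library fit, and 25 and 2 in that fit without wt replicate 1). Cdh22, a neural cadherin, rose from 12.7 and 12.5 to 41.9 and 39.4 (log2 1.61 ± 0.081).

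Solute carriers, the transport proteins for sugars, amino acids, ions and transmitters, rose in 111 of 249 tested members and fell in 5 (median 0.35). Through EED-cKO alone 12 of the 249 passed the filter, and 100 of the other 237 rose. After quantile normalization 75 rose and 17 fell, in the 8-library fit 132 rose and 11 fell, and in that fit without wt replicate 1 the counts were 146 and 16. Slc1a2, the glutamate carrier of astrocytes, was at 10.5 and 6.9 RPKM in wt and 28.8 and 32 in EED-cKO (log2 1.72 ± 0.20). Slc6a5, the glycine carrier of inhibitory neurons of hindbrain and spinal cord, was at 0 and 0 against 2.5 and 2.5. Slc14a1, a urea carrier, rose from 0.8 and 0.8 to 5.1 and 5.8 (log2 1.84 ± 0.11). Slc17a7, the vesicular glutamate carrier of cortex, fell from 27.8 and 29.6 to 5.9 and 6.8 (log2 −2.02 ± 0.11), and Slc18a2, the vesicular monoamine carrier, from 8.7 and 7 to 2.3 and 2.5 (log2 −1.37 ± 0.14). Of 28 sugar and monocarboxylate carriers 14 rose and 0 fell (9 and 1 after quantile normalization), while Slc2a1, the main glucose carrier of the blood-brain barrier, was at 66.1 and 64.4 against 62.6 and 63.2 and was not called. Aquaporins and carbonic anhydrases rose in 10 of 14 tested members and fell in 0. Among these 14, 2 passed the filter through EED-cKO alone, and 8 of the other 12 rose. Aqp4, the water channel of astrocytes and ependyma, was at 1.8 and 0.8 against 11.9 and 12.9 (log2 2.58 ± 0.23), and Aqp1, of choroid plexus, at 10.5 and 10.5 against 27.8 and 24.6 (log2 1.24 ± 0.097).

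Neuronal surface and synapse genes gave mixed counts. Of 67 adhesion molecules of the immunoglobulin and leucine-rich families 20 rose and 8 fell (30 and 8 in the 8-library fit, and 40 and 6 in that fit without wt replicate 1). Cntn2, a contactin of growing axons, fell from 80.5 and 72.5 RPKM to 19.7 and 18.9 (log2 −1.93 ± 0.087), and Cntnap1, which pairs with contactins at the axon, rose from 2.2 and 1.3 to 7.5 and 6.7 (log2 1.58 ± 0.19). Of 49 synaptic vesicle genes 25 rose and 4 fell, but in the 8-library fit, where 27 rose, 11 did without EED-cKO replicate 2 and 15 without wt replicate 2 or EED-cKO replicate 1. Vamp1, a vesicle fusion protein, rose from 4.2 and 3.3 to 11.1 and 15 (log2 1.56 ± 0.18), and Syt6, a synaptotagmin, fell from 21.2 and 15.3 to 4.5 and 4.5 (log2 −1.79 ± 0.17). The abundant members Rab3a and Vamp2 were not called. Of 25 postsynaptic scaffold genes 4 rose and 3 fell, the latter being Homer1 (log2 −0.73 ± 0.096), Homer3 (−0.54 ± 0.082) and Nrgn, neurogranin (−0.69 ± 0.11). Tubulin genes of young neurons fell, Tubb3 from 2198 and 2436.5 to 1509.2 and 1427.6 (log2 −0.66 ± 0.13) and Tubb5 from 3691.2 and 4109.3 to 2433.9 and 2345.8 (log2 −0.70 ± 0.15), whereas Tuba1a, at 10542.7 and 12007 against 7530.9 and 7112.8, was not called (limma adjusted p = 0.0924). Of 36 microtubule and growth cone genes 5 rose and 6 fell, against 5 and 11 in the 8-library fit and 12 and 11 in that fit without wt replicate 1.

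Motile cilia genes, which build the beating cilia of ependyma and choroid plexus, were among the lists with the most calls: 28 of 31 tested rose and 1 fell (median 0.84, and 0.47 after quantile normalization, where 19 rose). Of the 42 genes listed, 31 were tested, 8 of them through EED-cKO alone, and 20 of the other 23 rose. Foxj1, the transcription factor that switches on motile ciliogenesis, was at 14.9 and 15.4 RPKM in wt and 40.7 and 38.8 in EED-cKO (log2 1.34 ± 0.079). Spag6, a protein of the central pair of microtubules, was at 0 in wt (both libraries) and reached 4.9 and 4.1 RPKM in EED-cKO. Cfap44 rose from 1.8 and 1.1 to 5.8 and 5.7 (log2 1.48 ± 0.17), Ccdc114, of the outer dynein arm dock, from 2.1 and 1.7 to 7.2 and 6.6 (log2 1.45 ± 0.12) and Rsph4a, of the radial spokes, from 1.2 and 1 to 4.7 and 4.7 (log2 1.44 ± 0.10). Choroid plexus markers, Ttr among them at 2072.2 and 2232.5 against 5652.1 and 4411.6 (log2 1.21 ± 0.19), rose in the same libraries.

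The remaining lists concern regulation and the cytoskeleton. Of 363 tested Zfp genes, most of them zinc finger transcription factors, 20 rose and 53 fell. After quantile normalization 13 rose and 147 fell, in the 8-library fit 33 rose and 81 fell, and in that fit without wt replicate 1 the counts were 77 and 86. Of 32 nuclear receptors 8 rose and 7 fell, and the larger changes were decreases, in Rxrg, a retinoid X receptor of striatum, from 20.7 and 22.7 RPKM to 4.4 and 6.4 (log2 −1.84 ± 0.18) and in Nr2f1, a patterning factor of cortex, from 151.6 and 151.8 to 61.2 and 65.2 (log2 −1.25 ± 0.073). Of 28 apoptosis genes 8 rose and 2 fell. Pmaip1, which encodes the death-promoting protein NOXA, was at 2.2 and 2.6 against 14.3 and 13.4 (log2 2.13 ± 0.11). Immediate early genes gave 6 higher and 6 lower of 25 (3 and 9 after quantile normalization), with Fos at 0.7 and 0.6 against 2 and 1.9 and Ier5 at 79.4 and 102.4 against 40 and 38.1 (log2 −1.19 ± 0.14). Of 9 tested germline genes, of 51 listed, 4 rose and 0 fell. Circadian clock genes gave 3 higher and 1 lower of 17, with 6 higher in the 8-library fit and 9 in that fit without wt replicate 1. Of 32 actin cytoskeleton genes 18 rose and 4 fell. Vim, vimentin of radial glia and mesenchyme, rose from 381.7 and 390.3 to 742.3 and 757.3 (log2 0.96 ± 0.087), and Actb, cytoplasmic actin, fell from 2255.4 and 2424.8 to 1583.5 and 1571.1 (log2 −0.57 ± 0.13). Of 17 annexins and S100 genes 10 rose and 0 fell, with Anxa2 at 60.7 and 62 against 115.5 and 122.1 (log2 0.94 ± 0.072). Of 38 dual-specificity and receptor-type phosphatases 16 rose and 1 fell (7 and 2 after quantile normalization), and of 36 small GTPase regulators 16 rose and 4 fell, with Rgs10, which dampens G protein signalling, at 25.5 and 27.8 against 72.4 and 73.8 (log2 1.42 ± 0.079) and Rnd2, a GTPase of migrating cortical neurons, at 127.6 and 160.1 against 80.9 and 80.1 (log2 −0.82 ± 0.12).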

How the data were processed

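Total RNA of 4 E15.5 forebrain libraries was sequenced as single-end reads without strand, per the labels' protocols. The authors deposited gene-level RPKM values (read counts scaled by gene length and library size), rounded to 1 decimal. The submitters' processing notes name the builds mm9 and GRCm38 without their roles, and the aligner and counter are not given in the sources used here.

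The E15.5 columns were matched to the gene names sorted alphabetically with case and hyphens ignored. This moved 23016 of 36333 rows, and 61 names tied in the sort. The moved genes named in the report are Slc30a3, Tcf7l2, Arl4d, Ppp1r1b, Nsdhl, Fabp5, Fabp7, Atp5b, G6pdx, Aldh18a1, Npc2, Naglu, Hspb8, Hspa1a, Hspa1b, Hspa8, Slc7a11, Psmb8, Psmb9, Nova1, Srsf12, Col4a5, Nid1, Mmp2, Adamts3, Adamts18, Mmp17, Cxcl12, Npy, Nts, Npw, Ntsr1, Chrna3, Chrna4, Cdh2, Cldn7, Krt8, Krt18, H2-D1, B2m, Slc1a2, Slc6a5, Slc14a1, Slc17a7, Slc18a2, Slc2a1, Aqp4, Syt6, Rab3a, Nrgn, Spag6, Cfap44, Ccdc114, Rsph4a, Cyp1b1, Aldh2, Aldh1a3, Ngfr, Gpr17, Itga3, Cd63, Cdh22, Nr2f1, Anxa2 and Rgs10.

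The test covered genes that reached 1 RPKM in 2 or more of the 4 libraries and used limma 3.58.1 (R 4.3.3, empirical Bayes with a trend) on log2(RPKM + 1), 2-sided, with Benjamini-Hochberg adjustment over all tested genes and a threshold of 0.05. In a simulation of this comparison with 15830 genes, 100 genes were changed by 1 and 100 by 2 on the log2 scale. The fit called 99 of the first and 100 of the second, and 18 unchanged genes. The changed genes were drawn only from genes above a set mean level, so recovery of genes at low RPKM was not simulated. The data gave far more calls, 5618, of which 644 were of genes below 1 RPKM in both wt libraries. The simulated shares therefore cannot be carried over to the calls of this report. Alternatives were other pseudocounts, filters, scalings, a fit of all 8 libraries, a fit without the trend, a replicate block and leaving out libraries. The 8-library fits with a library left out and a block with crossed numbers were added after the data had been seen.

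The comparison, the 96 lists (78 by function, 18 of markers) and the motifs were chosen with earlier results of these data known, so counts in lists are descriptions. All 78 lists by function are described or plotted. The named-gene rule took the 30 highest and 20 lowest changes and, from each list, up to 5 called genes in each direction, the 3 most abundant, and genes at 0 in wt. Which of these are printed, and which are labelled or plotted, was decided after their values were seen, with preference for calls that held when libraries were left out. Tcf7l2, Gata3, Lgmn, Naglu, Sgsh and Lamp1 fall outside the rule. Promoter CpG content was not compared between genes because under 80% of the tested coding genes had a promoter entry (79.5%), and classes by protein sequence were not analysed here. Results for some genes are not reported here.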

Additional observations from a re-analysis of the deposited data

How the results depend on the processing

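Depth is unknown for RPKM without counts, and 2 libraries a group limit every call. Other pseudocounts and the fit without the trend left the counts of genes within 1.5 times of 3939 higher and 1679 lower. Genes called higher numbered 2382 with a mean of at least 5 RPKM required, where fewer genes were tested. Genes called lower numbered 3072 after quantile normalization and 2838 in the fit of all 8 libraries, and the cause was not tested. Without any filter 2939 were higher and 1162 lower, and 36 called genes of the report were not called. Higher calls were 70.1% of all calls, against 60.7% with the mean filter, 62.3% with median ratio scaling, 64.5% in the 8-library fit and 48.2% after quantile normalization, so the split of calls by direction depends on the scaling. Leaving out 1 of the 4 libraries gave 0 to 3724 genes higher and 0 to 2131 lower, and of the 78 lists 0 to 59 with more members higher and 0 to 17 with more lower, against 63 and 12 with all. Leaving out 1 in the 8-library fit gave 3440 to 6054 higher and 1482 to 3552 lower (2701 lower without wt replicate 2), with 63 to 65 and 12 to 14 lists. Against the 4-library counts, the larger count of a list moved by over 1.5 times in that fit in 20 of 78 lists without wt replicate 1, 14 without wt replicate 2, 4 without EED-cKO replicate 1 and 7 without EED-cKO replicate 2. The same happened in 42 lists without the filter, 37 with the mean filter, 40 with moved genes left out (fewer genes), 20 after quantile normalization and 12 in the 8-library fit of all libraries. After quantile normalization the direction of 3 lists turned: neuropeptides, monoamine and acetylcholine receptors, and nuclear receptors. The cause was not tested.

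Same-numbered libraries shared only a number: their deviations correlated at −0.133 over genes, and nothing in the labels pairs them. With a replicate block 3434 genes were higher and 1068 lower, the larger count moved by over 1.5 times in 13 of 78 lists, and 9 called genes of the report were not called. With crossed numbers the block gave 4690 higher and 1957 lower.

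Read in the deposited row order, the E15.5 values would reverse the sign for 13 genes of the report, because other rows then carry their names: Tcf7l2 at 1.35, Atp5b at 0.40, Aldh18a1 at 0.42, Naglu at −0.39, Hspa8 at 1.58, Psmb8 at −0.32, Psmb9 at −0.34, Adamts3 at 1.52, Mmp17 at 0.49, Slc14a1 at −0.84, Slc17a7 at 0.28, Rab3a at 1.12 and Srsf12 at −0.19 on the log2 scale. A further 11 called genes would not be called.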
